A study of Rattus norvegicus with 10 samples.

Results

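The genes described here encode 5 chains of the fibrillar collagens (Col1a1, Col1a2, Col3a1, Col5a1 and Col5a2) and 5 small leucine-rich proteoglycans (Lum, Dcn, Fmod, Ogn and Bgn), measured in the hypothalamus of weaning-stage rats. Members were all probe sets that the array annotation assigned to 1 of these genes alone, which gave 17 of 31042 probe sets for 10 of the 14217 genes that the array names alone. The study asked how chewing affects the hypothalamus, by comparing rats on solid chow (C group) with rats on powdered feed (P group). All rats were male Wistar rats, 3 weeks old at the start, and all received powdered feed for 2 days before the diets began. They then received solid chow or powdered feed for 8 days, and the hypothalamus was taken at 4 weeks of age from 5 rats per group, named Chow 1 to Chow 5 and Powder 1 to Powder 5. Each rat was measured on 1 Affymetrix Rat Genome 230 2.0 array, and all values are log2 signals. A difference is always the C group minus the P group, with its standard error (SE) from limma.

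Fibrillar collagens are secreted as procollagen, assemble outside the cell into banded fibrils and give connective tissue its tensile strength. Type I is the most abundant of them, type III is mixed with it in soft tissues and type V sits in the core of the fibril, where it limits the fibril's width. Small leucine-rich proteoglycans bind to the surface of these fibrils and govern their spacing and width. In the brain the parenchyma holds little fibrillar collagen, and the known sources are fibroblasts of the leptomeninges, the membranes around the brain, and fibroblasts along larger vessels.

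The 10 genes lie on different chromosomes, except for some that lie side by side. In the gene order of the rat assembly GRCr8, Dcn was followed by Lum and then by Kera on chromosome 7, Col3a1 by Col5a2 on chromosome 9, Prelp by Fmod on chromosome 13, and Ogn by Omd on chromosome 17. Kera, Prelp and Omd are proteoglycans of the same family. Promoter sequence from RefSeq (GRCr8) was at hand for 6 of the 10 genes. The 250 bases before the annotated start are shown, 5′ to 3′. They are given for the member with the closest partner by Pearson r (Col1a2) and for 2 of the proteoglycans (Lum and Fmod). Ogn, the member with the widest range over rats, is also shown. Capitals mark CCAAT or else TATAAA or else GGGCGG on either strand, with the reverse strand read as the complement.
Col1a2, chr4:33518307-33518556, plus strand: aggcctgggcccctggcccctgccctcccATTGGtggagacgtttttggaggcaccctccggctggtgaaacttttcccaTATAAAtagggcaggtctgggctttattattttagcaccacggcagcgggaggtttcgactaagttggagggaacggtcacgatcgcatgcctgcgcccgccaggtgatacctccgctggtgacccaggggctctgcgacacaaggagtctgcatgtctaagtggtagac
Lum, chr7:34245456-34245705, plus strand: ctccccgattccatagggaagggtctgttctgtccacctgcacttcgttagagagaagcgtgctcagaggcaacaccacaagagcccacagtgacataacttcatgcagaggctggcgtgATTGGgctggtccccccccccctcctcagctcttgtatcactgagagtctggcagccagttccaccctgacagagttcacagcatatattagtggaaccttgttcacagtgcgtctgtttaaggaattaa
Fmod, chr13:48045317-48045566, plus strand: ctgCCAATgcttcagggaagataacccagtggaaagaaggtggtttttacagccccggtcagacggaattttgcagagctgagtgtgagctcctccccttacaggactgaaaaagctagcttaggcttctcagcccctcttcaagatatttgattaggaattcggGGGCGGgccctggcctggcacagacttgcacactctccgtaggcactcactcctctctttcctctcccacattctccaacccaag
Ogn, chr17:15258996-15259245, minus strand: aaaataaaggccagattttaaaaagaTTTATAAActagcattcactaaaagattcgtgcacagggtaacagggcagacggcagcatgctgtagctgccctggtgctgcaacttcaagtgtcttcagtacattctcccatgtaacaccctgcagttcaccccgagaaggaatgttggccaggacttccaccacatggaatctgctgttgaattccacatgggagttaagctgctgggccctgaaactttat

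CCAAT, the core of the element bound by CBF/NF-Y, was in 3 of the 6 promoters (Col1a2, Lum and Fmod) and in 34.0% of 33469 rat promoters of the same length. TATAAA was in 2 of 6 (Col1a2 and Ogn) against 12.9% of all, and in Ogn a copy on each strand overlapped. GGGCGG was in 2 of 6 (Col5a1 and Fmod) against 30.5%. In Col1a2 the CCAAT motif, on the reverse strand, began 221 bases before the start and TATAAA began 170 bases before it. None of the 3 motifs was present in more than 3 of the 6 promoters. These matches are letters in a window and say nothing of binding.

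The deposited values were almost flat for most probe sets: 28736 (92.6%) had a standard deviation (SD) over the 10 rats below 0.001 and 1391 (4.48%) had an SD above 0.1, called varying here. Of the 17 member probe sets, 14 varied, covering 9 of the 10 genes, and both Col5a2 probe sets and 1 of Col5a1 did not. Neuropeptide genes that mark the hypothalamus were present, with Hcrt, the orexin precursor, at 9.94 to 10.96 and Pmch, which encodes melanin-concentrating hormone, at 12.44 to 13.15. Chow 1 and Chow 4 stood apart from the other 8 rats for the members: in 14 of the 14 varying member probe sets these 2 rats were the highest of all 10, a pattern found in 16.6% of all varying probe sets and in 2.86% of all probe sets. The differences, calls and pair correlations of the members are therefore also given without these 2 rats. Other results rest on all 10 rats unless stated. In bulk tissue, fewer cells of a type and less RNA per cell cannot be told apart.

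The fibrillar collagens and proteoglycans had a higher mean in the C group for every varying probe set, with differences of 0.17 to 0.36, but the diets overlapped in all of them and the spread between rats was larger than the difference. By rank products, the study's test, at a false discovery rate (FDR) below 0.05, 14 of 17 member probe sets were called higher and 0 lower, for 9 of 10 genes. Over all probe sets 0.944% were called higher and 0.789% lower, over varying probe sets 20.4% and 14.4%, and with 1 probe set per gene 1.32% and 0.928% of 14217 genes. By limma 0 of 17 were called, as were 0% of all 31042 probe sets (adjusted p of each member 0.9995), while 3.54% of all had an unadjusted p below 0.05. Single exact permutation tests over the 252 assignments of 5 against 5 rats gave p between 0.246 and 0.571 for the 14 varying probe sets. Some of these genes belong to gene ontology terms that the study picked from calls on the same rats, so the number called cannot serve as independent evidence for a direction.

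**Figure D1:**
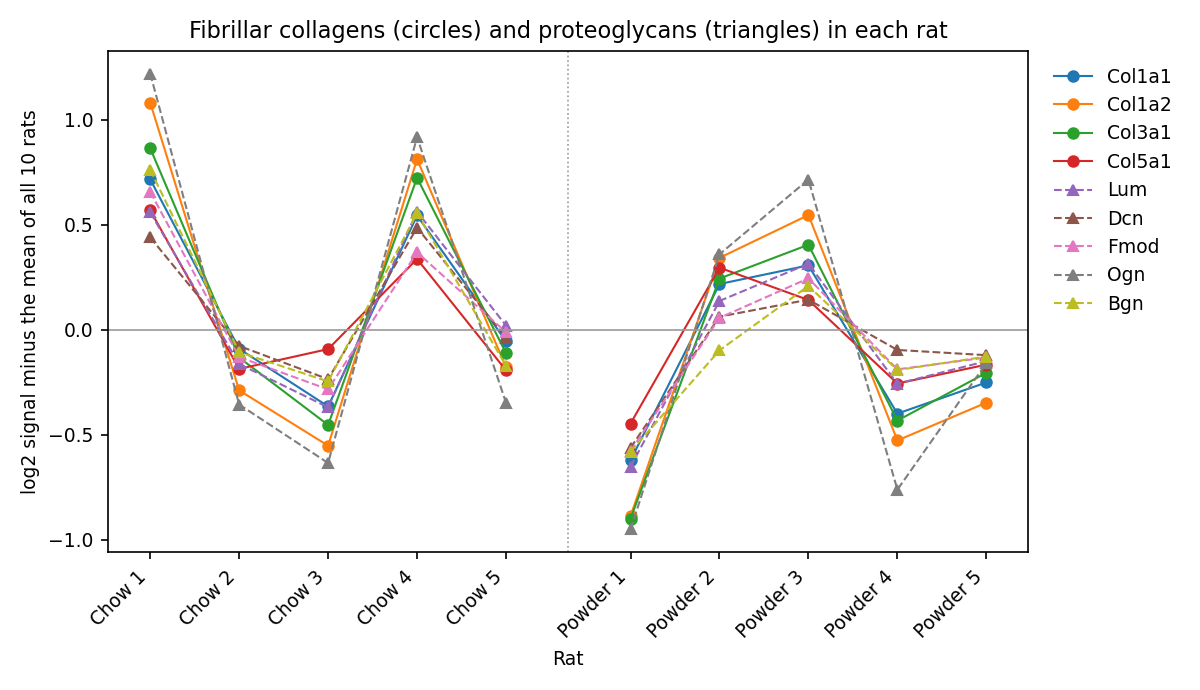
Log2 signal of 9 member genes minus each gene's mean over all 10 rats, in the 5 C group rats (left) and the 5 P group rats (right), where lines join the values of a gene and carry no order of rats. Chow 1 and Chow 4 are the highest rats for every gene and Powder 1 the lowest.

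Among the collagens, Col1a1 encodes the alpha 1 chain of type I collagen, of which each triple helix holds a pair. Its probe set 1370864_at read 8.90, 8.10, 7.82, 8.73 and 8.13 in Chow 1 to Chow 5 and 7.57, 8.41, 8.49, 7.79 and 7.94 in Powder 1 to Powder 5. Chow 1 and Chow 4 lay above every P rat, and the other 3 C rats lay within the range of the P group. The C group averaged 8.34 ± 0.46 (SD, n = 5) and the P group 8.04 ± 0.40, a difference of 0.30 (SE 0.26, 95% interval -0.30 to 0.90, FDR 0.004). Without Chow 1 and Chow 4 it was -0.021. Its other probe set, 1388116_at, differed by 0.29 (SE 0.27, FDR 0.00672).

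Col1a2, the alpha 2 chain that completes the type I helix, had the widest range among the collagens. Probe set 1370155_at read 10.49, 9.12, 8.86, 10.22 and 9.23 in Chow 1 to Chow 5 and 8.52, 9.75, 9.96, 8.88 and 9.06 in Powder 1 to Powder 5. The highest and lowest rat were 3.91-fold apart. Only 2 of the 5 C rats, Chow 1 and Chow 4, were above the P mean of 9.24. The difference of 0.35 (SE 0.41, interval -0.58 to 1.27, FDR 0.00276) became -0.16 without these 2 rats. Probe set 1387854_at gave 0.32 (SE 0.38), and -0.18 without them.

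Col3a1, the only chain of type III collagen, had the largest difference of the members. It read 9.91, 8.91, 8.59, 9.77 and 8.93 in the C rats and 8.15, 9.29, 9.45, 8.61 and 8.84 in the P rats, in the same order. The C mean was 9.22 ± 0.58 and the P mean 8.87 ± 0.52, which differed by 0.36 (SE 0.34, interval -0.41 to 1.12, FDR 0.00343). Here 4 of 5 C rats were above the P mean, of which Chow 1 and Chow 4 were above every P rat and the other 2 within the P range. Without Chow 1 and Chow 4 the difference was -0.055.

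Type V collagen, the nucleator of type I fibrils, gave the smallest differences between the diets. Col5a1 was at 8.05, 7.30, 7.39, 7.82 and 7.29 in the C rats and at 7.04, 7.78, 7.62, 7.23 and 7.32 in the P rats by probe set 1369955_at. The difference was 0.17 (SE 0.20, interval -0.28 to 0.62, FDR 0.0219), and -0.071 without Chow 1 and Chow 4. Powder 2 was the highest P rat here, whereas Powder 3 was the highest in the other 13 varying probe sets. The other Col5a1 probe set, 1376099_at, was flat at 7.75 with an SD of 0.00015. Col5a2, the partner chain, was not called. Its probe set 1373463_at stayed between 8.34 and 8.43 (SD 0.033) and differed by 0.026 (SE 0.020, FDR 0.160), and 1370895_at was flat at 8.76. The small deviations of 1373463_at nevertheless followed the varying members, with r = 0.897 and rho = 0.891 to their mean over the 10 rats, and were highest in Chow 1. Those of 1370895_at, the probe set that stood for Col5a2, followed them less. Their r was 0.559 and rho 0.636, and they were highest in Powder 3. The reason why a probe set was flat was not tested.

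The proteoglycans were likewise highest in Chow 1 and Chow 4 and lowest in Powder 1. Lum, lumican, a keratan sulfate proteoglycan that spaces collagen fibrils, read 8.80, 8.08, 7.87, 8.80 and 8.26 in the C rats and 7.59, 8.38, 8.55, 7.98 and 8.09 in the P rats. Its difference was 0.24 (SE 0.24, interval -0.31 to 0.80, FDR 0.0131). Chow 4 was the highest rat by a small margin over Chow 1, and without both the difference was -0.050.

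Dcn, decorin, which binds collagen and transforming growth factor beta, read 8.65, 8.14, 7.98, 8.70 and 8.18 in the C rats and 7.65, 8.28, 8.36, 8.12 and 8.09 in the P rats. Among the varying members it had the narrowest spread within each diet, with an SD of 0.33 (C group) and 0.27 (P group). The difference was 0.23 (SE 0.18, interval -0.19 to 0.65, FDR 0.0156, exact permutation p = 0.246). It was -0.0020 without Chow 1 and Chow 4.

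Fmod, fibromodulin, a relative of lumican that binds the same region of type I collagen, read 8.27, 7.49, 7.33, 7.98 and 7.60 in the C rats and 7.04, 7.67, 7.86, 7.43 and 7.48 in the P rats. It differed by 0.24 (SE 0.21, interval -0.25 to 0.72, FDR 0.0143). Chow 2, Chow 3 and Chow 5 lay within the P range, and without the other 2 C rats the difference was -0.022.

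Ogn, osteoglycin or mimecan, varied most of all members. Its probe set 1376749_at read 9.96, 8.39, 8.11, 9.66 and 8.40 in the C rats and 7.79, 9.10, 9.46, 7.98 and 8.58 in the P rats, a 4.50-fold range over the 10 rats. The values fell into a high part, formed by Chow 1, Chow 4, Powder 2 and Powder 3, and a lower part at 8.58 or below. The mean difference of 0.32 (SE 0.48, interval -0.77 to 1.40, FDR 0.00222) was smaller than the SD of either diet, 0.84 and 0.71. The difference of the group medians had the opposite sign, at -0.19, and so had the difference without Chow 1 and Chow 4, at -0.29.

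Bgn, biglycan, the close relative of decorin on the X chromosome, read 8.87, 8.01, 7.87, 8.67 and 7.94 in the C rats and 7.53, 8.01, 8.32, 7.92 and 7.98 in the P rats. The C group was more spread (SD 0.46) than the P group (SD 0.28), and a larger SD in the C group was seen in 14 of 14 varying member probe sets. All of these were highest in Chow 1 and Chow 4 and covaried, so they are not separate observations of spread. The share over all probe sets was not counted. The difference of Bgn was 0.32 (SE 0.23, interval -0.22 to 0.85, FDR 0.0118), and -0.017 without Chow 1 and Chow 4.

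**Figure D2:**
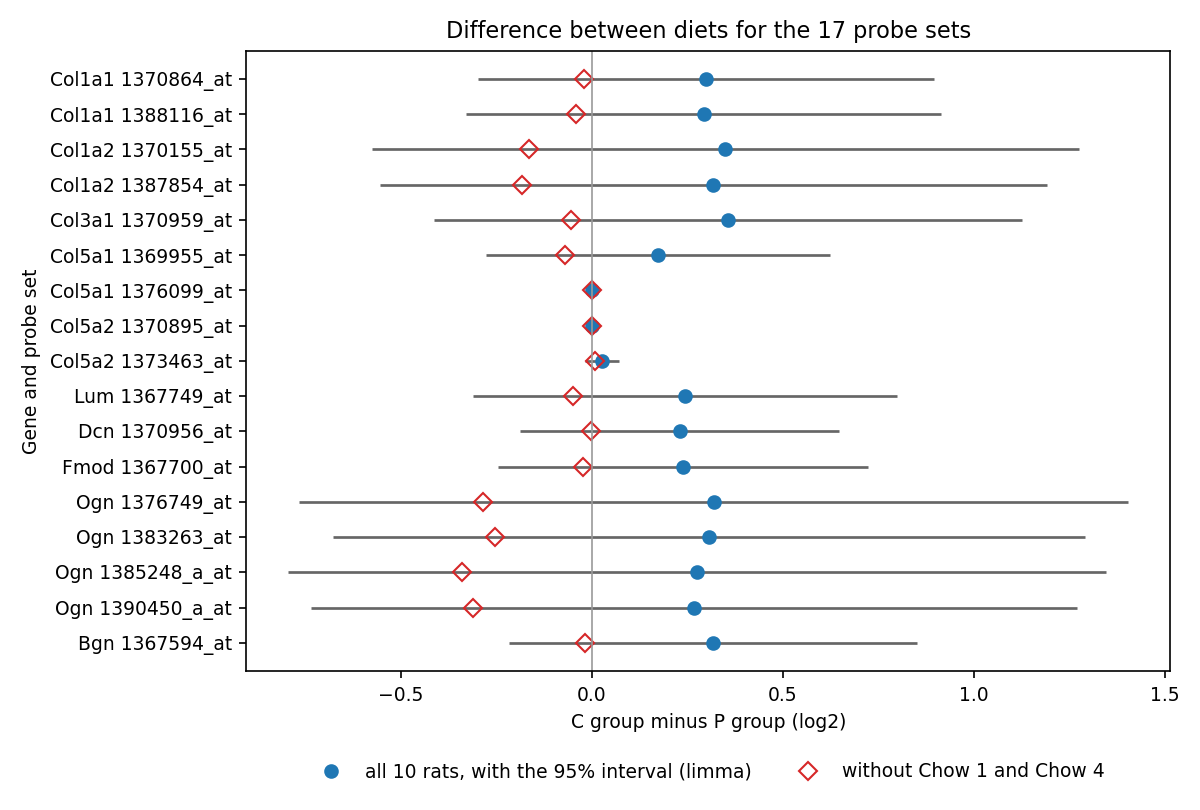
Difference between the diets (C group minus P group, log2) for the 17 member probe sets, as filled points with 95% intervals from limma over 10 rats, and as open diamonds without Chow 1 and Chow 4. The interval spans 0 for 14 of 14 varying probe sets, and their 14 diamonds lie below 0.

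Over the 14 varying probe sets the calls by rank products therefore coexisted with intervals that all included 0. Leaving out the highest rats of a group lowers its mean by construction, and with Chow 1 and Chow 4 left out the difference was below 0 in 14 of 14, from -0.34 to -0.0020. Rank products then called 0 member probe sets higher and 5 lower, 1 of Col1a2 and 4 of Ogn. Over all 31042 probe sets the calls moved too, from 293 higher and 245 lower to 47 higher and 259 lower. Without Chow 1 alone 3 of 17 members were called higher, without Chow 4 alone 5 and without Powder 1, the lowest rat, 8. In the same order, 120, 150 and 165 of all 31042 probe sets were called higher. The median difference over the 10 genes was 0.27, beside 0.03 over all varying probe sets and 0 within rounding over all probe sets (-2.7e-06).

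Probe sets of the same gene agreed closely where both varied. Col1a1 and Col1a2 each had a pair of varying probe sets and Ogn had 4, which makes 8 comparisons within a gene. Over deviations from the diet means in the 10 rats, r lay between 0.989 and 0.998 and rho between 0.939 and 0.976. The 4 Ogn probe sets differed in level by up to 1.59 between their means, but their differences between the diets were 0.32, 0.31, 0.28 and 0.27. After removal of the mean offset, no rat departed by more than 0.16 between varying probe sets of a gene, and the difference between the diets moved by at most 0.05. Col5a1 was the exception, since its flat probe set 1376099_at did not show the 2.02-fold range of 1369955_at, although its minute deviations had an r of 0.863 to the mean of the varying members.

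**Figure D3:**
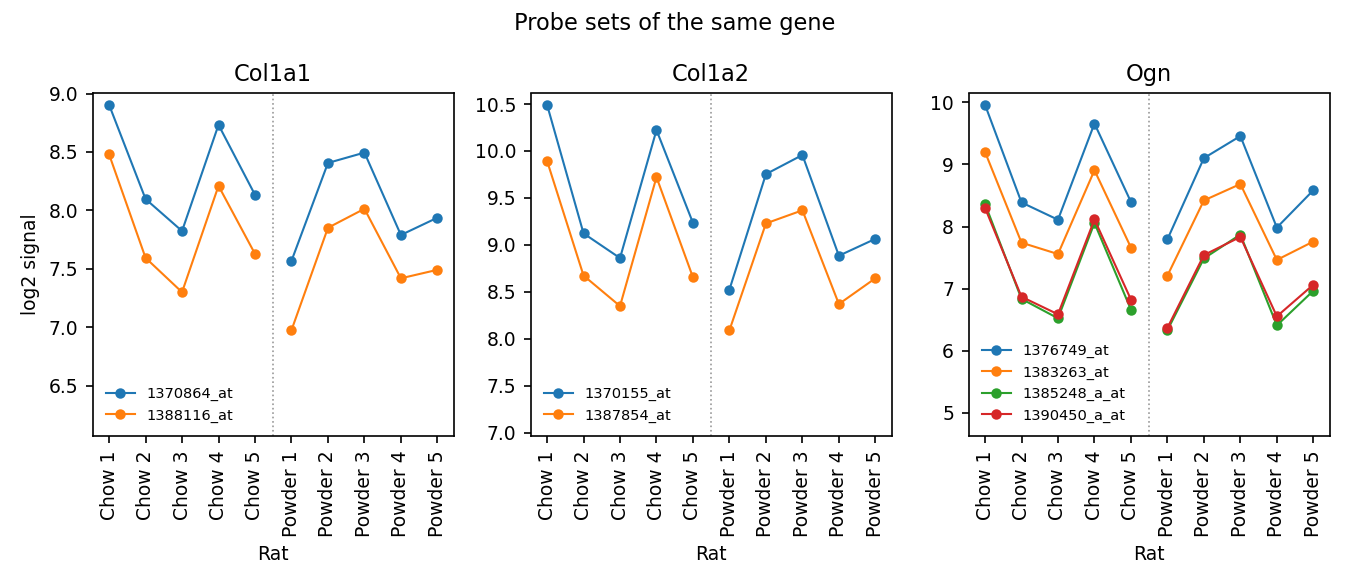
Log2 signal of each varying probe set of Col1a1, Col1a2 and Ogn in the 10 rats, with the C group left of the dotted line and the P group right of it. The traces of a gene run parallel at different levels, with r between 0.989 and 0.998.

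Within each diet the 9 varying genes were high and low in the same rats. Taking 1 probe set per gene, each of the 9 varying genes placed Powder 1 last in the P group, 8 of 9 placed Powder 3 first, and 8 of 9 placed Chow 3 last in the C group. Chow 1 was first for 7 genes and Chow 4 for 2, Lum and Dcn. The mean deviation over the 9 genes was 0.76, -0.17, -0.36, 0.59 and -0.12 in Chow 1 to Chow 5 and -0.69, 0.18, 0.34, -0.35 and -0.18 in Powder 1 to Powder 5. The range from Powder 1 to Chow 1 was 2.73-fold, against a mean difference between the diets of 0.28 on the log2 scale. Concordance of the ranks (Kendall's W, which is 1 for identical orders) was 0.872 for the C rats and 0.960 for the P rats, as a description of 5 rats each. The first principal component held 98.6% of the variance of the 9 genes among C rats and 96.4% among P rats.

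Since 5 rats are too few for a correlation, the diet mean was removed and all 10 rats were used together. The 36 pairs of genes had r between 0.886 and 0.997 (median 0.960) and rho between 0.806 and 1.0 (median 0.952). Exact permutation p-values over the 14400 pairings within diets lay between 6.94e-05, the smallest they can give, and 0.00375 for r, and reached 0.0138 for rho. Adjusted over 12505 relations, of 9 members with each varying probe set, 36 of 36 pairs passed 0.05 by r (highest adjusted p 0.0321) and 29 of 36 by rho (highest 0.106). The 7 pairs that missed by rho all included Col5a1. Over all relations 13.6% passed by r and 7.89% by rho, and 9.85% had an r of 0.9 or more. Without the 2 rats farthest from the median, r was 0.879 to 0.995, and without Chow 1 and Chow 4 it was 0.733 to 0.995 (median 0.938).

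Type I collagen gave the tightest pair by r: Col1a1 and Col1a2, whose products form 1 molecule, had r = 0.997 and rho = 0.988. By rho, Col1a1 with Ogn and Col3a1 with Fmod were closer, both at 1.0. For scale, the 2 varying probe sets of Col1a1 itself had r = 0.989. The 6 pairs of collagens had r from 0.936 to 0.997, the 20 pairs of a collagen and a proteoglycan 0.886 to 0.990 and the 10 pairs of proteoglycans 0.926 to 0.979. These ranges overlapped, and genes of different families covaried about as closely as genes of the same family (medians 0.971, 0.959 and 0.960). Lum and Dcn, neighbours on chromosome 7, had the highest r among proteoglycans, 0.979, followed by Lum with Fmod at 0.974. Col3a1 correlated with Lum at 0.989 and with Fmod at 0.978, and the ranks of Col3a1 and Fmod were identical (rho 1.0). The lowest values belonged to Col5a1, with Dcn at 0.886 and with Bgn at 0.891, and the latter fell to 0.733 without Chow 1 and Chow 4.

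**Figure D4:**
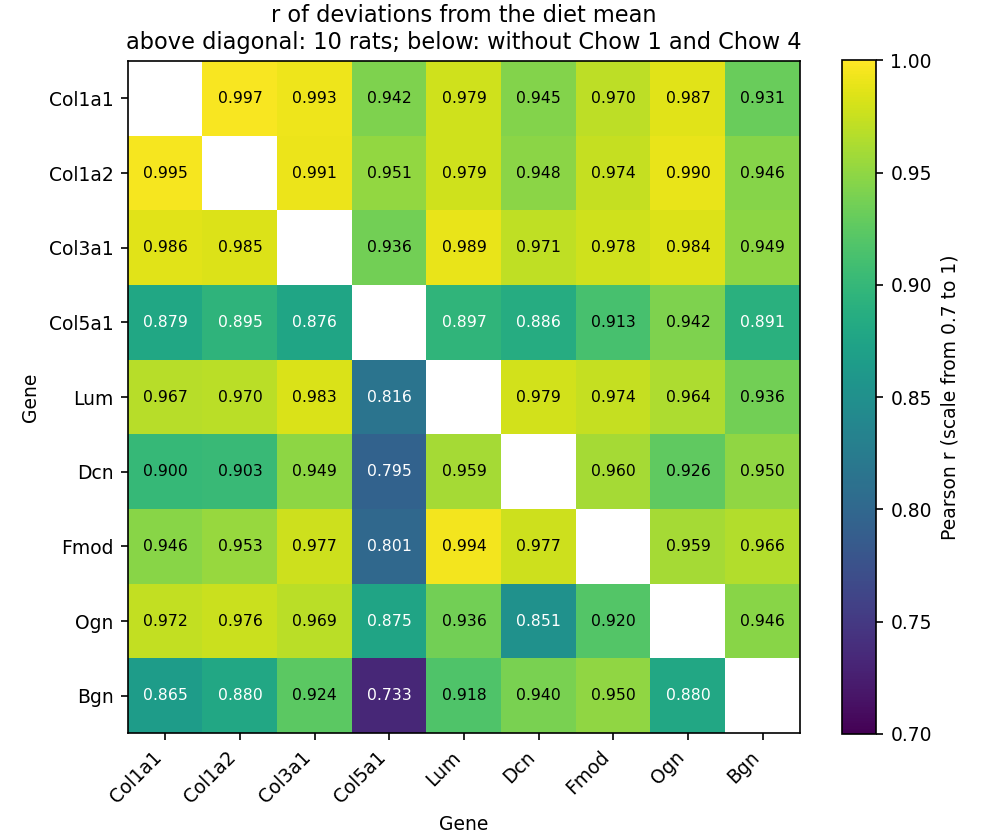
Pearson r between 9 member genes over deviations from the diet means, with 10 rats above the diagonal and 8 rats (without Chow 1 and Chow 4) below it, on a colour scale from 0.7 to 1. Values above the diagonal lie between 0.886 and 0.997, and the lowest below it belongs to Col5a1 with Bgn, 0.733.

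The genes differed in how far they moved with the common pattern. Per unit of the mean of the other members, Ogn moved by 1.84, Col1a2 by 1.53, Col3a1 by 1.24 and Col1a1 by 0.92. Lum followed at 0.84, Bgn at 0.78, Fmod at 0.72, Col5a1 at 0.64 and Dcn at 0.60. That mean accounted for 99.1% of the within-diet variance of Col3a1, 99.0% of that of Col1a2 and 98.3% of that of Col1a1, and for the smallest share in Col5a1 (88.0%). Departures of single rats were small beside this. Ogn in Powder 4 was 0.32 below its line, Bgn in Powder 2 was 0.22 below, Col5a1 in Powder 2 was 0.18 above and Dcn in Powder 4 was 0.16 above. These slopes are on the scale of each probe set's signal and are not ratios of RNA amounts.

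Genes outside the set were ranked by their r to the mean of the 9 members, over 1377 other varying probe sets. The 10 genes most alike were Angpt2, Ifitm1, Ppic, Slc6a20a, Gjb2, Igf2, Slc13a4, Igfbp2, Slc22a6 and Emp3, with r from 0.995 down to 0.987. Angpt2 (angiopoietin 2, a ligand of the endothelial receptor Tie2) had r = 0.995, rho 1.0 and a difference of 0.17 (SE 0.18). Igf2, an insulin-like growth factor, differed by 0.22 (SE 0.36) and Igfbp2, a protein that binds it, by 0.33 (SE 0.48). Of the 10, all but Ppic, a cyclophilin, were called higher by rank products. The median r of all ranked probe sets was 0.19, and 146 of them (10.6%) exceeded 0.9, so a value that high was shared by many other genes. At the other end, Dynlrb2, a dynein light chain, had r = -0.858 and rho = -0.927.

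Other genes of the matrix were counted in 7 lists. Of all 14217 genes, with 1 probe set each, 1.32% were called higher and 0.928% lower. The other fibrillar collagens, such as Col2a1 and Col11a1, were 6 measured genes with 0 varying and 0 called. Of 8 other small leucine-rich proteoglycans, 2 varied and both were called higher: Omd, the neighbour of Ogn, by 0.23 (SE 0.31) and Prelp, the neighbour of Fmod, by 0.12 (SE 0.08). Their r to the member mean was 0.968 and 0.928.

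Genes that fold, process and crosslink collagen numbered 20, of which 5 varied, 2 were called higher and 0 lower. Pcolce, an enhancer of procollagen C-proteinase, was higher by 0.21 (SE 0.14) and Serpinh1, the collagen chaperone HSP47, by 0.11 (SE 0.07). Lox, the lysyl oxidase that starts crosslinks, was not called at 0.14 (SE 0.16), with r = 0.913 to the member mean, nor was Loxl1 at 0.06 (r = 0.971). Ppib, a cyclophilin of the endoplasmic reticulum, had a lower r of 0.549 and a difference of 0.02.

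Among 19 collagens outside the fibrillar class, which included those of basement membranes and beaded filaments, 5 varied. Of these, Col6a3 at 0.21 (SE 0.29) and Col8a2 at 0.16 (SE 0.33) were called higher. Of 5 collagen receptors, Ddr2 at 0.15 and Ddr1 at 0.10 were called higher and the integrin subunit Itga1 at -0.15 was called lower. Ddr2, a receptor for fibrillar collagens, had r = 0.858 to the member mean, and Ddr1, another collagen receptor, had 0.144. Of 14 proteases and inhibitors, Timp3 at 0.15 (SE 0.10) was the only one called. Of 16 genes of the transforming growth factor beta list, Tnc, tenascin C, was called higher at 0.16 (SE 0.10) with an r of 0.394, while Fn1, fibronectin, at 0.11 (SE 0.23) was not called and had r = 0.985.

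Markers of the cells that could supply these transcripts were read beside the members. Of 20 measured leptomeningeal fibroblast markers, 18 varied, 13 were called higher and 0 lower, with a median difference of 0.19. For comparison, 4.48% of all probe sets varied, and 1.32% of 14217 genes and 20.4% of varying probe sets were called higher. The list was chosen with earlier results of these data known, so these counts are not independent evidence. Foxc1, a transcription factor of the meninges, and Pdgfra were the measured markers that did not vary. The mean deviation of the 18 varying markers was 0.78 in Chow 1 and 0.65 in Chow 4, between -0.40 and -0.25 in Chow 2, Chow 3 and Chow 5, and between -0.59 and 0.41 among P rats. It was highest in the same 2 rats as the members and lowest in Powder 1. Of 162 relations to member genes, 136 passed the adjusted threshold of 0.05, beside 13.6% of all relations. Stra6, called higher by 0.22 (SE 0.19), had an r of -0.220 to the member mean, with 0 of 9 relations past the threshold. Mgp passed in 4 of 9, and Slc47a1 and Gjb6 in 3 of 9 each. The markers with the largest differences were Gjb2, a gap junction protein, at 0.38 (SE 0.36), Igfbp2 at 0.33, Slc13a4, a sulfate transporter, at 0.31 (SE 0.62) and Slc22a6, an organic anion transporter, at 0.30 (SE 0.37). The part of these markers in the differences between the diets was not tested.

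In the mural cell, endothelial, perivascular macrophage and choroid plexus lists 1 marker each varied, while 4.48% of all probe sets varied. Of 13 mural cell markers 1 varied (Tagln, difference 0.0034), of 11 endothelial markers 1 (Kdr, 0.03) and of 7 perivascular macrophage markers 1 (Mrc1, 0.05), and 0 markers of these 3 lists were called. Whether a marker was expressed only by the cell type of its list was not tested, so contrasts between lists depend on how markers were assigned. Mrc1, the mannose receptor, had an r of 0.891 to the member mean, with 9 of 9 relations past the threshold, and was highest in Chow 1 and Chow 4. Of 9 choroid plexus markers only Ttr varied, which was called higher by 0.43 (SE 0.56) but had an r of -0.0035 to the members and was highest in Chow 3. Of the red cell genes Hbb and Alas2, called higher by 0.13 each, r was -0.330 and -0.391. The hypothalamic neuron list held 14 measured genes, of which 9 varied, 0 were called higher and 7 lower, with 0 of 81 relations past the threshold. Over 14217 genes 0.928% were called lower, and over all relations 13.6% passed. The mean of the varying neuron genes was lowest in Chow 1, at -0.20.

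**Figure D5:**
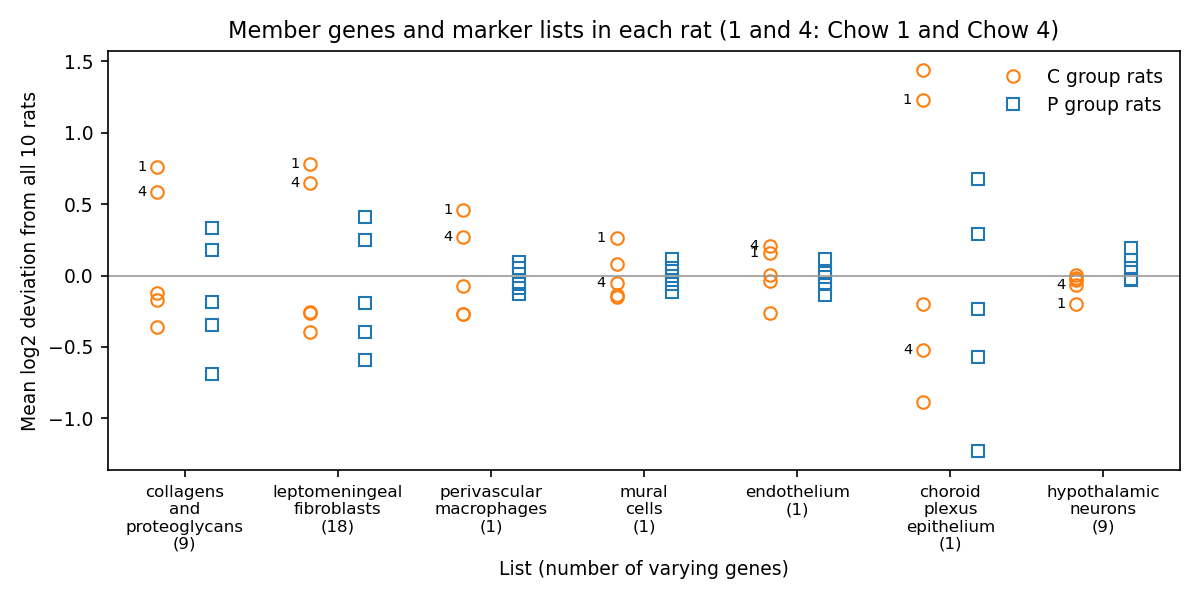
Mean log2 deviation from the average of all 10 rats for the 9 member genes and for the varying genes of 6 marker lists, with C group rats as circles, P group rats as squares and Chow 1 and Chow 4 numbered 1 and 4. Chow 1 and Chow 4 are highest for the members and for leptomeningeal fibroblasts, at 0.76 and 0.59 and at 0.78 and 0.65.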

How the data were processed

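Hypothalamic RNA of 10 rats was hybridized to 1 array each. Using R 2.7.2, the authors summarized the probes of each set by factor analysis (the FARMS method), and they deposited log2 signals from 5.23 to 13.96 for 31099 probe sets. They were used unchanged after 57 hybridization controls were left out, and 0 columns were unmapped. This summarization leaves a probe set almost flat where its probes share no signal. Arrays have no read depth, so precision comes from the 5 rats per group. Correlations between arrays were 0.9970 to 0.9991. With 92.6% of probe sets almost flat, these values say little about agreement in the varying ones. The 5 rats of a group are separate animals.

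Of 31042 probe sets, 20826 name 1 gene, 436 several and 9780 none. The varying probe set (SD over rats above 0.1) of highest mean stood for a gene. The members and lists were chosen with earlier results of these data known. Named were all members, the 10 genes most like their mean, the called genes of 7 pathway lists (at most 4 each) and up to 4 markers in each of 7 marker lists. Chosen after their values were seen were the uncalled genes with values in the pathway lists and the gene least like the member mean. So were the 2 leptomeningeal markers named as not varying and those named for few relations to the members. The lists hold 195 entries, of which 165 were measured.

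Rank products (Python 3.11.15, numpy 2.4.6, pandas 2.3.3) ranked 25 differences between a C and a P rat against 100 permutations, called at an FDR below 0.05. Limma 3.58.1 in R 4.3.3 fitted all probe sets, with Benjamini-Hochberg adjustment. Correlations used deviations from the diet mean and scipy 1.17.1, and drawings matplotlib 3.10.9. Scripts were tested on simulated data. Alternatives were filters on spread or mean, quantile normalization, median centring, a threshold of 0.01, a replicate block, scaling of differences by the SD within groups, other ways to represent a gene, group medians, rank correlation and leaving out rats. The authors' own comparisons were not used.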

Additional observations from a re-analysis of the deposited data

Results flagged for a closer look

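Each of the 14 varying member probe sets was checked in each diet for a rat far from the other 4 of its group (Dixon's criterion, 28 groups of 5), and 0 were flagged. Chow 1 and Chow 4 stood apart together, which a check for a single distant rat does not see.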

How the results depend on the processing

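The 14 member probe sets called higher stayed 14 with quantile normalization and median centring. A filter on mean level kept 15 member probe sets, of which 12 were called higher, beside 125 of all 15521 kept. The number called higher became 0 with limma, 0 without Chow 1 and Chow 4, and 9 at a threshold of 0.01. It was 0 when only probe sets with an SD above 0.1 were ranked, where 1 of all 1391 was called higher and 4 lower. Dividing differences by the within-group SD also gave 0, with 33 of all 31042 called higher and 76 lower. Leaving out each rat in turn gave 3 to 14, with 3 without Chow 1, 5 without Chow 4 and 8 without Powder 1. Without these rats 120, 150 and 165 of all 31042 probe sets were called higher. Called lower were 0 member probe sets, but 5 without Chow 1 and Chow 4, beside 259 of all 31042. The labels do not say whether rat numbers pair the samples. Same-numbered rats correlated at -0.325 to 0.279 and 0 C rats correlated best with their own number, which cannot exclude a pairing. With the replicate block, ranking the 5 same-numbered pairs, 9 were called higher and 4 lower, beside 202 and 321 of all 31042. All 4 called lower were of Ogn, and 2 of these were called in both directions. Limma with the replicate block called 0, with a lowest adjusted p of 0.995 among members. Over all probe sets the smallest adjusted p by limma was 0.256 with the block and 0.986 without it.

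The median difference of 0.27 became -0.036 without Chow 1 and Chow 4, 0.084 by group medians and 0.12 to 0.39 without each rat in turn. Without Chow 1 and Chow 4 the differences were -0.021 for Col1a1, -0.16 for Col1a2, -0.055 for Col3a1, -0.071 for Col5a1, -0.050 for Lum, -0.0020 for Dcn, -0.022 for Fmod, -0.29 for Ogn and -0.017 for Bgn. Ogn was also below 0 by group medians, at -0.19. The cause of these changes was not tested beyond the rats left out. The median r between members stayed between 0.938 and 0.977 under the alternatives run. The 5 rats per diet and the flatness of most probe sets limit what a difference can show.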
